A study of Mus musculus with 6 samples.

Results

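Serum amyloid A1, A2 and A3 (Saa1, Saa2 and Saa3) and haptoglobin (Hp) are genes of the acute-phase response. They were taken from the deposited expression table by gene symbol, which found 4 of the 29595 genes listed. They were singled out with the difference between the Hnf3a and pcDNA groups in view, so that difference is given for them as a description and no test of it is read. All 4 genes passed the filter on low counts, which left 17824 genes for the comparison. Saa2 passed only through the pcDNA libraries, where it was higher.

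The libraries came from TKPTS cells, which are cultured mouse cells of kidney proximal tubule origin. The Hnf3a group (3 libraries) had received pcDNA3.1-Hnf3a-Flag, which carries HNF3α, a forkhead transcription factor with the gene symbol Foxa1. The pcDNA group (3 libraries) had received pcDNA3.1-Flag, so that both groups shared the cell line, the plasmid backbone and the tag. RNA was taken 24 h after transfection, and the labels of these libraries give no TGF-β1 treatment. They do not say whether the replicates were grown as separate cultures, so the spread between libraries may be partly technical. Where 3 values are given for a group, they stand in the order of the replicate numbers.

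The acute-phase response is the change in plasma proteins that follows infection or tissue injury. Cytokines such as interleukin-6, interleukin-1 and tumour necrosis factor start it through STAT3, NF-κB and C/EBP factors, mostly in the liver. Serum amyloid A proteins are small lipid-binding proteins that travel on high-density lipoprotein. Saa1 and Saa2 are mainly liver genes, whereas Saa3 is also expressed in macrophages, fat and epithelia. Haptoglobin binds free haemoglobin so that it can be taken up and broken down. Injured kidney tubules are known to make several acute-phase proteins themselves.

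In the GRCm38 build, Saa3 (ENSMUSG00000040026) lies at chr7:46711998-46715700 and Saa1 (ENSMUSG00000074115) at chr7:46740497-46742980, both on the minus strand. Saa2 (ENSMUSG00000057465) lies at chr7:46751790-46754313 on the plus strand, and Hp (ENSMUSG00000031722) at chr8:109575128-109579172 on the minus strand. The longest coding transcript has 4 exons for Saa1 and for Saa2, 2 for Saa3 and 5 for Hp. No other annotated gene overlaps any of them. The longest coding transcripts of Saa1 and Saa2 had 87.3% of aligned positions identical. Of 560 windows of 50 bases in the Saa1 transcript, 51 also occur in that of Saa2, but no window of 100 bases, or of 150 bases, the length of a read, does. How reads that match both were assigned is not given in the sources used here, so the sum of Saa1 and Saa2 is given as well.

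The promoters of the serum amyloid A genes are shown because these 3 genes were lower together. RefSeq promoters (GRCm38.p6) were matched for 3 of the 4 genes, all but Hp. The stretch from 250 to 51 bases before the RefSeq start is printed 5′ to 3′ on the strand of the gene. Capitals mark matches to the NF-κB consensus and to the C/EBP motif TTNNGNAA on either strand. These are chr7:46743031-46743230, chr7:46751583-46751782 and chr7:46715727-46715926 for Saa1, Saa2 and Saa3.
Saa1: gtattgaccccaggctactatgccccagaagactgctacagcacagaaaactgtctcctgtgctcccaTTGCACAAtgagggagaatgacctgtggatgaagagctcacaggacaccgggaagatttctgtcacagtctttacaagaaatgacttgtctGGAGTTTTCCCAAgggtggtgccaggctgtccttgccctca
Saa2: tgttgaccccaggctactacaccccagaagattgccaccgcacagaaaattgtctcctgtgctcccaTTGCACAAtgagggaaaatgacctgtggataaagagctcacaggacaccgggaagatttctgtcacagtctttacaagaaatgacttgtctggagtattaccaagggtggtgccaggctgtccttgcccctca
Saa3: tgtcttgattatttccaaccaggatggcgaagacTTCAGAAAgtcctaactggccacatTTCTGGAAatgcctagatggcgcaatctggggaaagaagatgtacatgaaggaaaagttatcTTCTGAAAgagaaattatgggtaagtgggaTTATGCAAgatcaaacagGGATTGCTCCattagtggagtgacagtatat

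The Saa1 and Saa2 stretches had 93.5% of aligned positions identical, and each had about 52% in common with Saa3 (52.3% and 51.9%). Saa1 held an NF-κB consensus match from base -91 to -82 and Saa3 one from -81 to -72, counted from the RefSeq start. The 30-base windows around the Saa1 match differ between Saa1 and Saa2 within the 10 bases in capitals.
Saa1: tgacttgtctGGAGTTTTCCcaagggtggt
Saa2: tgacttgtctGGAGTATTACcaagggtggt

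Counted from 1 at the first capital, with the Saa1 base first, the differences are T6A and C9A, and the Saa2 stretch does not match the consensus. The C/EBP motif occurred at 4 places in Saa3, at 2 in Saa1, of which 1 overlaps the NF-κB match, and at 1 in Saa2. Of 32851 RefSeq promoter stretches of the same length, 18.5% held the NF-κB consensus and 32.3% the C/EBP motif. The forkhead motif, searched only in the form TGTTTNC (14.7% of promoters), was in none of the 3 stretches. Nor were the STAT motif TTCNNNGAA (5.76%), the AP-1 motif TGANTCA (5.57%) or TATAAA (9.14%). A match describes the letters only. These windows leave out any site further away and any nearer to the start than base -51, so TATAAA was not looked for close to the start.

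The libraries held between 60473818 and 71154667 estimated counts. A sequenced fragment appears to be worth about 4 of these counts, so 12 counts, about 3 fragments, were taken as the detection floor. Foxa1 was at 304.6 FPKM (fragments per kilobase of transcript, scaled to library size) in the Hnf3a group and 9.66 FPKM in the pcDNA group, as means of 3 libraries. The epithelial and renal genes Cdh1, Krt8, Krt18, Epcam and Pax8 were between 29.2 and 247.2 FPKM in either group. The proximal tubule carriers and receptors of the marker list were low, with Lrp2 and Cubn under 0.05 FPKM and Slc5a2 at no more than 3 counts. Slc34a1 was not among the genes listed. Aqp1, a water channel gene of the marker list, averaged 1.125 FPKM in the Hnf3a group and 0.944 FPKM in the pcDNA group. Fibroblast and macrophage genes were not even among the Hnf3a libraries. The 10 fibroblast genes summed to 2.19, 67.1 and 83.6 CPM (counts scaled to library size) in Hnf3a replicates 1, 2 and 3 and to between 0.964 and 1.54 CPM in the pcDNA libraries. The 11 macrophage genes listed summed to 28.1, 36.3 and 39.6 CPM against 26 to 29.8 CPM. Cd68 and Csf1r had the most counts of these, at least 554 in every library. Lyz2 had 0, 265 and 273 counts in the Hnf3a libraries against 16, 44 and 6 in the pcDNA libraries. C1qb had 0, 57 and 75 counts against 0, 10 and 0.

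Saa3 was the most abundant of the 4 genes, and it was 3.53-fold lower in the Hnf3a group than in the pcDNA group. Its estimated counts were 425, 446 and 495 in the Hnf3a libraries against 1412, 1521 and 1625 in the pcDNA libraries. The groups were far apart, and the libraries within each group lay close together. Hnf3a libraries averaged 2.32 ± 0.225 FPKM (SD, n = 3) against 8.17 ± 0.330 FPKM (SD, n = 3) for pcDNA libraries, and the log2 fold change was -1.82 (standard error 0.086). With Hnf3a replicate 1, which held few fibroblast genes, alone against the 3 pcDNA libraries, it was -1.87. Among the tested genes Saa3 stood at percentile 67.8 of mean FPKM in pcDNA libraries and at percentile 44 in Hnf3a libraries.

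Saa1 and Saa2 were near the limit of detection. Saa1 had 12, 22 and 23 counts in the Hnf3a libraries against 37, 71 and 54 in the pcDNA libraries. Saa2 had 8, 14 and 8 counts against 26, 42 and 70. In both genes every Hnf3a library was below every pcDNA library, although 2 Hnf3a libraries were under the floor for Saa2 and 1 was at it for Saa1.

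The mean level of Saa1 was 0.101 ± 0.0315 FPKM (SD, n = 3) with Hnf3a and 0.299 ± 0.086 FPKM (SD, n = 3) with pcDNA. For Saa2 it was 0.0467 ± 0.0129 FPKM (SD, n = 3) and 0.247 ± 0.118 FPKM (SD, n = 3). The log2 fold changes were -1.58 (standard error 0.39) for Saa1 and -2.27 (standard error 0.48) for Saa2. Taken as fragments, the Saa1 counts amount to 14 in the Hnf3a group and 40 in the pcDNA group, and those of Saa2 to 8 and 34, so that the values of both genes rest on few fragments. The sum of Saa1 and Saa2 was 0.427 ± 0.105 CPM (SD, n = 3) against 1.56 ± 0.452 CPM (SD, n = 3), a 3.65-fold lower level in the Hnf3a group. This sum does not depend on how reads were divided between the genes if each read was counted once, which is not known.

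Haptoglobin was the second most abundant of the genes and the most variable of the pair that lay well above the floor. Hp had 169, 173 and 80 counts in the Hnf3a libraries against 416, 463 and 285 in the pcDNA libraries. The groups did not overlap, and in each of them replicate 3 was clearly the lowest library. Hp averaged 1.16 ± 0.423 FPKM (SD, n = 3) with Hnf3a and 3.40 ± 0.837 FPKM (SD, n = 3) with pcDNA. This was 2.94-fold lower, a log2 fold change of -1.56 (standard error 0.29). The spread within groups was larger than for Saa3, with a coefficient of variation of 36.6% and 24.6% against 9.70% and 4.04% in the Hnf3a and pcDNA groups.

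**Figure D1:**
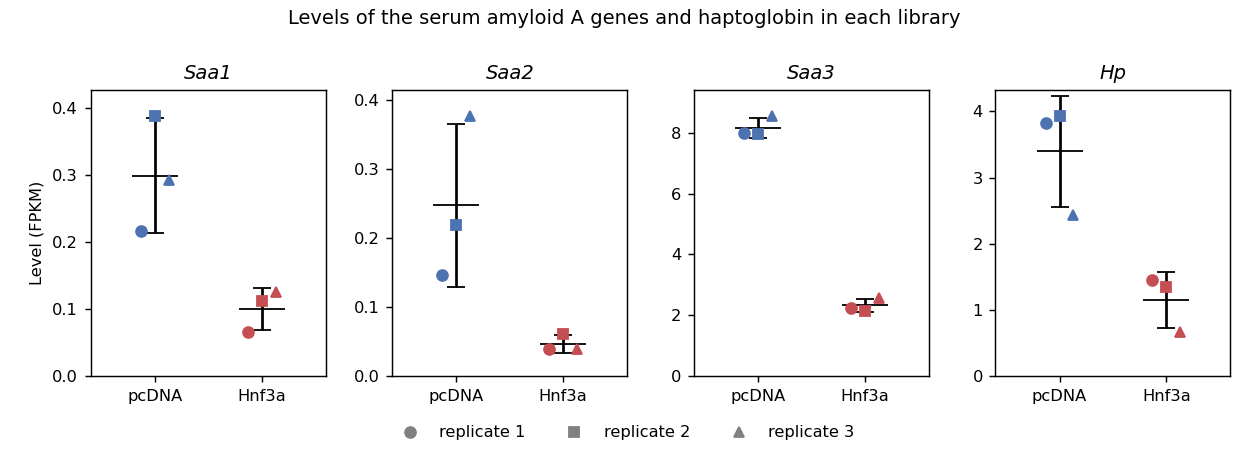
Levels of Saa1, Saa2, Saa3 and Hp in FPKM (vertical axes from 0, scaled for each gene) in the 3 pcDNA libraries (blue) and the 3 Hnf3a libraries (red), with symbols for the replicate number and black bars for the mean ± SD. In every panel the highest Hnf3a library is below the lowest pcDNA library, from 2.58 against 7.95 FPKM for Saa3 to 0.0616 against 0.146 FPKM for Saa2.

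At an adjusted p under 0.05 in the edgeR quasi-likelihood test, 4 of the 4 genes were called lower, as were 2.13% of all 17824 genes tested (3.17% were called in either direction). The groups did not overlap in the lower direction for 4 of the 4 genes and for 9.81% of all genes tested (18.9% in either direction). The genes were chosen on this contrast, so nothing is read from these counts. By size of the fall, Saa2, Saa3, Saa1 and Hp stood at places 6, 8, 13 and 14 among the 379 genes called lower. The number of the 4 genes called was 1 without Hnf3a replicate 2 or pcDNA replicate 2 (Saa3). It was 2 without Hnf3a replicate 1, Hnf3a replicate 3 or pcDNA replicate 3 (Saa3 and Hp) and 2 without pcDNA replicate 1 (Saa3 and Saa2). These counts come from the contrast on which the genes were chosen and are likewise a description.

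Levels ran in the order Saa3, Hp, Saa1 and Saa2 in both groups. Saa3 and Hp did not overlap in either group. Saa1 and Saa2 overlapped in the pcDNA group, from 0.217 to 0.388 FPKM against 0.146 to 0.377 FPKM. In the Hnf3a group the lowest Saa1 library, at 0.0652 FPKM, was barely above the highest Saa2 library. Saa3 made up 92.5% to 95.6% of the summed FPKM of the 3 serum amyloid A genes in the Hnf3a libraries and 92.7% to 95.7% in the pcDNA libraries. The share of Saa1 was 2.78% to 4.81% against 2.59% to 4.54%, and that of Saa2 was 1.44% to 2.65% against 1.75% to 4.09%. Each of these ranges overlapped between the groups. The ratio of Saa3 to Hp, in FPKM, was 1.55, 1.59 and 3.85 in the Hnf3a libraries against 2.09, 2.02 and 3.52 in the pcDNA libraries, so that the groups overlapped.

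The next comparison asked whether genes beside the members differed too. Within 100 kb of a member the table listed 15 other genes, of which 13 were tested, and none was called by edgeR, by DESeq2 or by limma on log2(FPKM + 0.1). Of all genes tested, edgeR called 3.17%, so no call among 13 genes says little about the neighbours. At an unadjusted p under 0.05 the edgeR count was 2, both lower, Gm45309 and Ldha. The share of all genes tested below that p is not given. Saal1, which lies 1318 bases from Saa3 and is named for its likeness to serum amyloid A, had a log2 fold change of -0.11 (edgeR adjusted p 0.465). Hps5, a gene of lysosome-related organelles on the other side of the cluster, had one of -0.0016 (edgeR adjusted p 0.995). Txnl4b, a splicing-related gene 1077 bases from Hp, had one of 0.0052 (edgeR adjusted p 0.992). Gm45309, a transcript within Hps5, had 10, 6 and 12 counts in the Hnf3a libraries against 32, 27 and 9 in the pcDNA libraries, and the groups overlapped. Saa4, the constitutive member of the family, lies between Saa3 and Saa1 and did not pass the filter, with 8, 0 and 0 counts against 0, 16 and 14. These genes, apart from Saa4, were named after their values were seen.

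**Figure D2:**
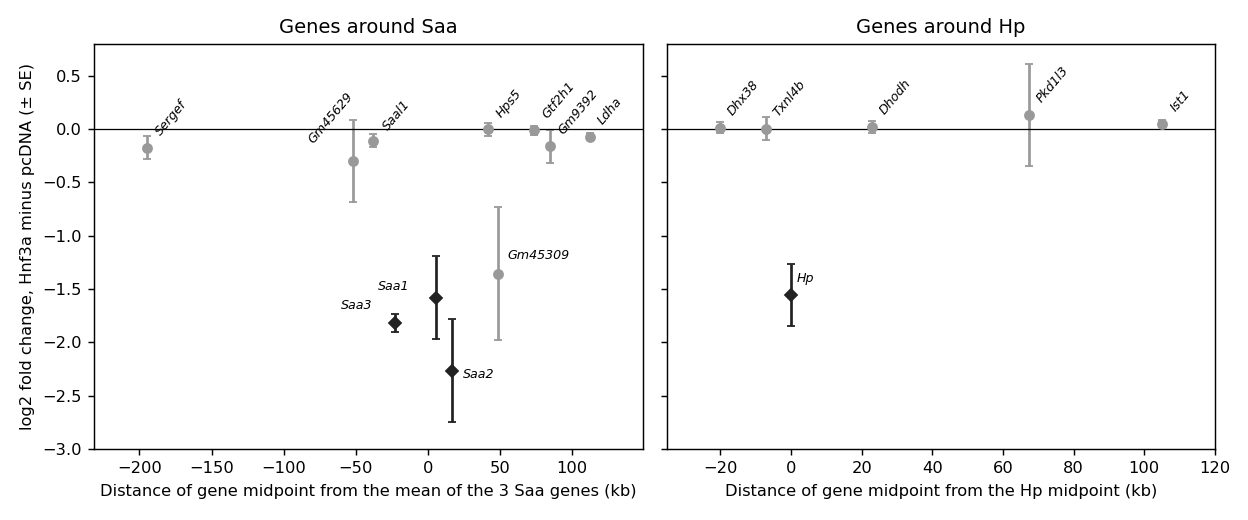
Log2 fold change between the Hnf3a and pcDNA groups (points, bars ± SE) of the tested genes whose nearest end lies within 100 kb of the serum amyloid A genes (left) and of Hp (right), against the distance of each gene's midpoint in kb. The black diamonds of Saa1, Saa2, Saa3 and Hp lie between -2.27 and -1.56, whereas the grey neighbours lie between -1.36 (Gm45309) and 0.13 (Pkd1l3).

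Other positive acute-phase genes, which are known to rise during the response, were compared as a list of 30. Not all of them code for plasma proteins, for example Steap4, Mt1 and Mt2. Of these, 23 were tested, and the other 7 had no more than 18 counts in any library. In the edgeR test 12 of the 23 were lower in the Hnf3a group at an adjusted p under 0.05, against the 2.13% of all genes tested that were lower. None was higher, against 1.04% of all genes tested. The number higher was also 0 by DESeq2 and by limma, and at an unadjusted p under 0.05 it was 1 in edgeR (Agt). The median log2 fold change was -0.83 over the tested genes of the list and 0.00085 over all genes tested. The list was written with earlier results of these libraries known and is not independent evidence of a direction.

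The 6 genes of the list with the smallest p were Cfb, Lcn2, Steap4, Cd14, C3 and Lbp. Cfb and C3 are components of the alternative complement pathway, Lcn2 binds bacterial iron carriers and marks tubular injury, Steap4 is a metal reductase, and Cd14 and Lbp bind bacterial lipopolysaccharide. Steap4 fell the most of the 6, to a level 3.40-fold lower. It had 224, 237 and 222 counts in the Hnf3a libraries against 647, 821 and 727 in the pcDNA libraries, with no overlap (log2 fold change -1.77, edgeR adjusted p 7.05e-07). C3 averaged 145.1 FPKM against 222.6 FPKM, with a log2 fold change of -0.63. Cd14 was at 22.7 and 36.6 FPKM (log2 fold change -0.69), and Lbp at 14.1 and 18.1 FPKM (log2 fold change -0.36). The log2 fold changes of Cfb and Lcn2 were -1.18 and -0.83. The edgeR adjusted p of these genes was at most 0.00175. An annotated gene on the same strand overlaps Cfb, and a microRNA gene lies within C3.

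The other 6 genes called lower were Serpina3g, Mt1, Mt2, Il1rn, Cp and Orm1, with log2 fold changes from -1.17 (Orm1) to -0.13 (Cp). Orm1, a plasma glycoprotein gene, had 44, 31 and 34 counts in the Hnf3a libraries against 60, 95 and 79 in the pcDNA libraries, and passed the threshold narrowly (edgeR adjusted p 0.0499). The calls of Orm1 and Cp were lost without any 1 library except Hnf3a replicate 1, that of Serpina3g without pcDNA replicate 2, that of Il1rn without pcDNA replicate 1, and that of Mt1 without Hnf3a replicate 2 or pcDNA replicate 3. Limma on log2(FPKM + 0.1) did not call Cp or Il1rn. The call of Orm1 was also lost with DESeq2 size factors, with total-count scaling and with a filter that kept all genes with at least 1 count. Genes on the other strand overlap Cp and Mt2. The fibrinogen chains Fga, Fgb and Fgg had log2 fold changes of -1.26, -0.87 and -1.11 and were not called (edgeR adjusted p 0.0555, 0.217 and 0.257). Agt, the angiotensin precursor, and Itih3 were the 2 genes with values above 0, at 1.12 and 0.77 (edgeR adjusted p 0.343 and 0.514). These genes lay outside the rule for naming and are given because the count turns on them. With Hnf3a replicate 1 alone against the pcDNA libraries, 7 of the list were called lower, in a fit that takes its spread from the pcDNA libraries and assumes that the lone library varies like them.

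**Figure D3:**
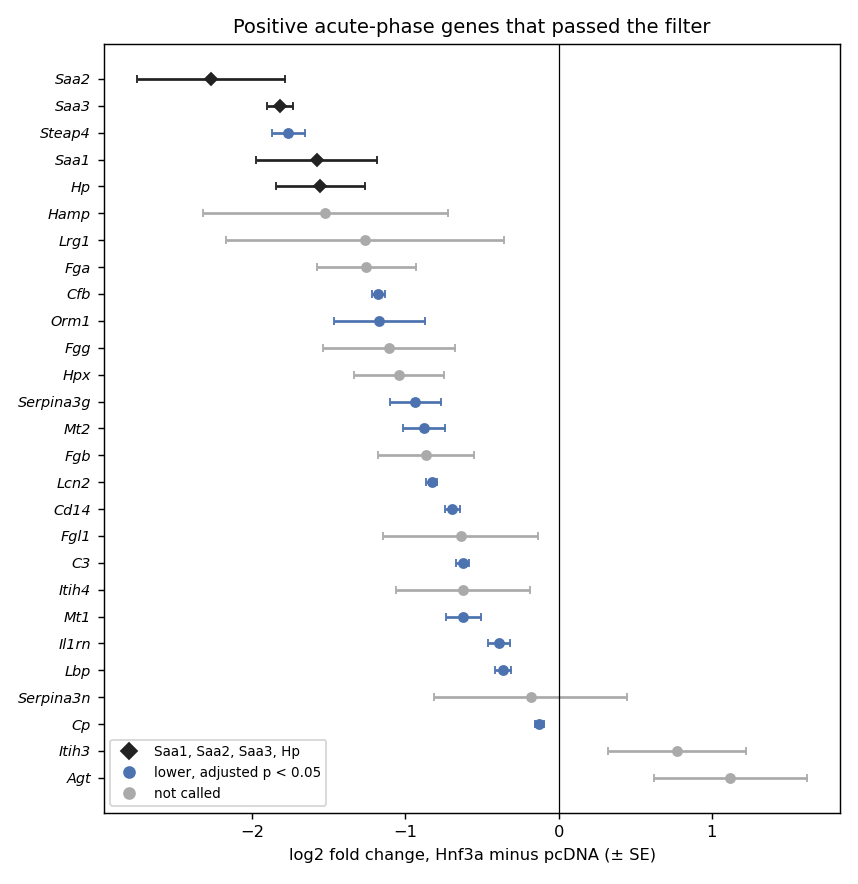
Log2 fold change between the Hnf3a and pcDNA groups (points, bars ± SE) of Saa1, Saa2, Saa3 and Hp (black diamonds) and the 23 tested genes of the positive acute-phase list, in blue where lower at an edgeR adjusted p under 0.05 and in grey where not called. Of the list, 21 points lie below 0, with Steap4 at -1.77 among the 4 diamonds.

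Hp was set beside other genes that are known from the liver. Haemopexin (Hpx), the plasma carrier of free haem, had 532, 568 and 364 counts in the Hnf3a libraries against 1071, 1131 and 626 in the pcDNA libraries. As for Hp, replicate 3 was the lowest library of each group, and the groups did not overlap. It was not called (log2 fold change -1.04, standard error 0.29, edgeR adjusted p 0.195). Transferrin (Trf) had 580, 733 and 543 counts against 1090, 1149 and 665, and was not called (edgeR adjusted p 0.199). The FPKM ratio of Hp to Hpx was 0.296, 0.283 and 0.203 in the Hnf3a libraries against 0.362, 0.382 and 0.425 in the pcDNA libraries, and so was lower in every Hnf3a library.

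The 10 hepatocyte markers summed to 12.4 to 18.5 CPM in the Hnf3a libraries and 17.5 to 29.3 CPM in the pcDNA libraries. Albumin (Alb) had 695, 631 and 652 counts against 1071, 1312 and 687 and a log2 fold change of -0.72 (edgeR adjusted p 0.27). The FPKM ratio of Hp to Alb was 0.177 to 0.398 in the Hnf3a libraries and 0.515 to 0.604 in the pcDNA libraries. The 8 hepatocyte markers tested had a median log2 fold change of -0.82, and 7 of them were below 0. Of these 8, 1 was called, against 3.17% of all genes tested. It was Ahsg, which was lower (log2 fold change -1.44, edgeR adjusted p 0.0441). Apoc3 and Serpina1a, at -1.11 and -0.95, were not called, although their groups did not overlap (edgeR adjusted p 0.317 and 0.153). Fabp1 and Tat, the markers of the list that were not tested, had no more than 13 and 22 counts. The part of these genes in the result for Hp was not tested. In bulk libraries, fewer cells that express a gene and less RNA per cell cannot be told apart.

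Of the negative acute-phase genes, whose products fall in plasma during the response, 6 of 7 were tested. Ahsg (fetuin-A), with 74, 40 and 24 counts against 131, 124 and 100, was the 1 gene called lower, and the median log2 fold change of the 6 was -0.73. Of all genes tested, 2.13% were lower. The call of Ahsg was lost without any 1 library except Hnf3a replicate 1, and a gene on the other strand overlaps it. Limma on log2(FPKM + 0.1) did not call Ahsg. Ttr, the carrier of thyroid hormone, had a log2 fold change of 0.0062, and Rbp4, which carries retinol, one of 0.18 (edgeR adjusted p 0.996 and 0.649).

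The cytokines that start the response and their receptors were then compared. Of 11 cytokine genes, 8 were listed and tested, with 3 lower and 1 higher, and the median log2 fold change was -0.24. Of all genes tested, 2.13% were lower and 1.04% higher. Il1a (interleukin-1α) had 1344, 1455 and 1404 counts in the Hnf3a libraries against 1941, 2235 and 2016 in the pcDNA libraries. The groups were apart, with a log2 fold change of -0.64 (edgeR adjusted p 2.05e-05), although an antisense gene overlaps it. Lif, a cytokine of the interleukin-6 family, averaged 74.4 FPKM against 100.4 FPKM (log2 fold change -0.44, edgeR adjusted p 1.28e-06). Il6 itself had 592, 803 and 593 counts against 1167, 876 and 1045, so that its groups came close (log2 fold change -0.73, edgeR adjusted p 0.00914). Limma on log2(FPKM + 0.1) did not call Il6. Il11, of the same family, was higher, with 144, 218 and 128 counts against 89, 65 and 75 (log2 fold change 0.99, edgeR adjusted p 0.0369). Its call was lost without any 1 library except Hnf3a replicate 3, and limma on log2(FPKM + 0.1) did not call it. Tnf, with groups that did not overlap, had a log2 fold change of -0.78, and Il1b one of 0.040. Neither was called (edgeR adjusted p 0.411 and 0.985).

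Of the 9 cytokine receptor genes, 1 was lower and 1 higher, against 2.13% and 1.04% of all genes tested. Their median log2 fold change was -0.15. Il6st, the signalling chain shared by the interleukin-6 family, had a log2 fold change of -0.19 (edgeR adjusted p 0.0194), and its call was lost without any 1 library except Hnf3a replicate 1. Lifr, the receptor for LIF, was higher by 0.31 on the log2 scale (edgeR adjusted p 0.00523). Neither Il6st nor Lifr was called by limma on log2(FPKM + 0.1).

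Among 15 transcription factors and feedback inhibitors of the response, 4 were lower, against 2.13% of all genes tested. The median log2 fold change of the 15 was -0.12. These 4 were among the 7 genes of NF-κB subunits and regulators on the list. Nfkbiz, which codes for IκBζ, an inducible co-regulator of NF-κB target genes, was at 22.5 FPKM against 31.4 FPKM (log2 fold change -0.49, edgeR adjusted p 7.64e-07). Nfkbia, the inhibitor IκBα and itself a target of NF-κB, was at 65.6 FPKM against 84.7 FPKM (log2 fold change -0.38). Nfkb1 and Nfkb2, the p105 and p100 precursors, had log2 fold changes of -0.32 and -0.14, and the call of Nfkb2 was lost without any 1 library except Hnf3a replicate 1. Limma on log2(FPKM + 0.1) did not call Nfkb2. Annotated genes overlap Nfkb1 on the same strand and Nfkb2 on the other. The NF-κB subunit genes Rel and Relb had log2 fold changes of -0.12 and -0.19 and were not called (edgeR adjusted p 0.631 and 0.0875). Rela, Cebpb, Cebpd, Stat3 and Socs3 had log2 fold changes of -0.027, -0.057, -0.10, 0.086 and -0.013, and their edgeR adjusted p was 0.235 or higher.

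**Figure D4:**
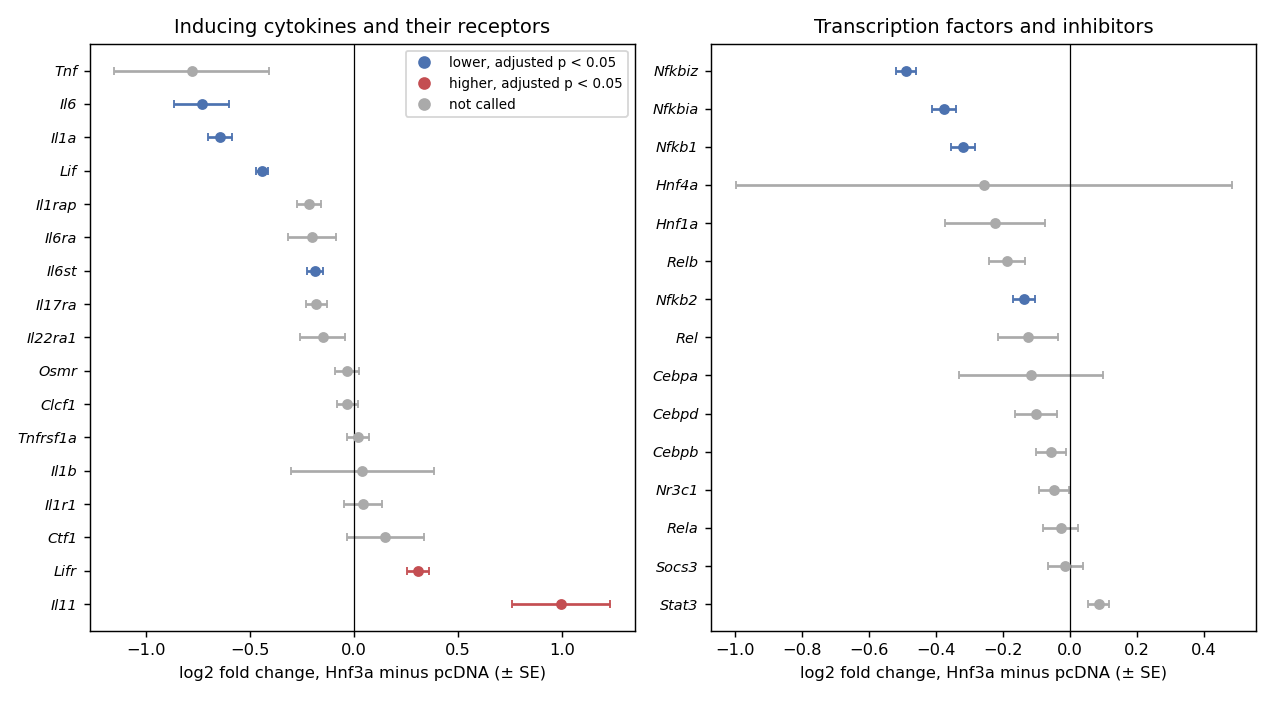
Log2 fold change between the Hnf3a and pcDNA groups (points, bars ± SE) of the tested inducing cytokines and their receptors (left) and of the transcription factors and inhibitors (right), in blue where lower and red where higher at an edgeR adjusted p under 0.05 and in grey where not called. Il6, Il1a and Lif lie between -0.73 and -0.44 on the left, and Nfkbiz, Nfkbia and Nfkb1 between -0.49 and -0.32 on the right, all nearer to 0 than Saa3 at -1.82.

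The molecules that bind serum amyloid A and haptoglobin came last. Of 10 receptors and partners of serum amyloid A, 8 were tested and 1 was called, Tlr2, a receptor of the innate immune system. Of all genes tested, 3.17% were called. Tlr2 had 2957, 3479 and 3012 counts in the Hnf3a libraries against 4970, 5031 and 4820 in the pcDNA libraries, and was lower by a clear margin (log2 fold change -0.74, edgeR adjusted p 1.23e-06). Fpr1 and Fpr2, receptors on myeloid cells, had no more than 12 counts. The median log2 fold change of the 8 was 0.048. Scarb1, a receptor for high-density lipoprotein, had a log2 fold change of -0.039 (edgeR adjusted p 0.795). Of 11 genes of haptoglobin and haem handling, 9 were tested and 1 was called, against the same 3.17%. It was Fth1, the ferritin heavy chain, which was lower (log2 fold change -0.42, edgeR adjusted p 1.18e-06), while the median of the 9 was 0.23. That median includes the globin genes Hba-a1, Hbb-bs and Hbb-bt, at 1.01, 1.78 and 0.87. They had at most 30, 36 and 16 counts in any library, and none was called. Cd163, the receptor for haptoglobin bound to haemoglobin, had no more than 4 counts. Hmox1, which breaks down haem, had a log2 fold change of -0.013 (edgeR adjusted p 0.953).

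The genes with the pattern most like each member were found by the root mean square difference of log2 CPM over the 6 libraries, each gene centred on its own mean. For Saa3 they were Steap4 (difference 0.121 log2 units), Nos2 (0.136), Slc26a4 (0.182), Gm6637 (0.238) and Gm8752 (0.267). Nos2 is the inducible nitric oxide synthase and Slc26a4 the anion exchanger pendrin. For Hp they were Selp (0.260), Sprr2h (0.280), Ahsg (0.281), Cd40 (0.291) and Gm44053 (0.318). No gene was in both of these sets. The difference between Saa3 and Hp was 0.506, and that between Saa3 and Saa1 was 0.363. For Saa1 they were Fmo1 (0.288), Gm6637, Cdh5, Nppb and Aldh3b2 (0.313), and for Saa2 they were Gm6637 (0.363), Steap4, Fmo1, Nos2 and Mfsd7a (0.466). Gm6637 and Fmo1 had low counts, as did Saa1 and Saa2. Such likeness rests on 6 libraries in 2 groups, and is given as a description.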

How the data were processed

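RNA-seq data from 6 TKPTS libraries were used, grouped and numbered as in the labels. According to the submitters' processing notes, the tools were cutadapt 1.9, HISAT2 2.0.4, UMI-tools, StringTie 1.3.4d, DESeq2 and edgeR, with the build mm10. Their roles are not given, nor are the counting tool, the annotation and the use of strand. The authors deposited estimated counts and FPKM values for each gene in each library. All estimated counts were whole, so none was rounded. More genes sat at 4 counts (1148 to 1203) than at 3 or 5, so 1 fragment was taken as about 4 counts, and the floor of 12 counts was 0.169 to 0.198 CPM. Of 29514 gene IDs shared with GENCODE vM21 (GRCm38), 25765 had identical coordinates.

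Counts were filtered with filterByExpr, scaled by TMM and tested two-sided with edgeR 4.0.16 (robust quasi-likelihood fit, no covariate, R 4.3.3), with Benjamini-Hochberg adjustment over 17824 genes. Each standard error was |log2 fold change| over the root of F. For a single gene, exact permutation of 3 against 3 libraries has a smallest p of 0.1. The procedure was tested on simulated data. Alternatives used limma 3.58.1, DESeq2 1.42.0, other filters and scalings, a replicate block and left-out libraries. The members and gene lists were chosen with earlier results of these data known. Genes named were the members, the called genes of each list (up to 6 by p), called neighbours and the 5 genes nearest in pattern; others were named after their values were seen. Sequences were compared with Biopython 1.88.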

Additional observations from a re-analysis of the deposited data

How the results depend on the processing

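The members kept their direction in all fits in which they were tested. Their log2 fold changes, without 1 library at a time, ranged from -1.90 to -1.76 for Saa3, from -1.75 to -1.28 for Hp, from -1.76 to -1.36 for Saa1 and from -2.53 to -1.85 for Saa2. In limma on log2(FPKM + 1) they were -1.47 (Saa3), -1.03 (Hp), -0.24 (Saa1) and -0.25 (Saa2), and on log2(FPKM + 0.1) they were -0.98 for Saa1 and -1.19 for Saa2, since a pseudocount understates the change of low genes. With Hnf3a replicate 1 alone, an alternative chosen after seeing the data, in which the spread comes from the pcDNA libraries alone, Saa1 was at -2.18. The members called lower numbered 1 in each of the 3 limma fits (pseudocounts 0.1, 1 and 0.01), 1 with Hnf3a replicate 1 alone, and 1 to 2 without 1 library. They numbered 2 with at least 1 FPKM in at least 3 libraries and 2 with counts divided by 4, where Saa1 and Saa2 were not tested.

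Libraries with the same replicate number did not deviate together over all genes (correlations of deviations -0.041, -0.01 and 0.01). For Hp, however, the standard error was 0.15 with the replicate block against 0.29 without it. With the replicate block 2 members were called (Saa3 and Hp, with log2 fold changes of -1.82 and -1.59) and 1 of the other pathway genes was higher. Over all genes, 379 were lower and 186 higher. The lower genes numbered 194, 185 and 196 in limma with pseudocounts 0.1, 1 and 0.01, and the higher genes 71, 63 and 75. DESeq2 called 322 higher. Without 1 library the lower genes numbered 199 to 390 and the higher genes 64 to 253. Both counts moved by over 1.5 times without Hnf3a replicate 2 (199 and 64), pcDNA replicate 1 (202 and 84), pcDNA replicate 2 (200 and 67) and pcDNA replicate 3 (251 and 98). With Hnf3a replicate 1 alone they were 232 and 90. The positive acute-phase list had 8 to 14 genes lower in the other fits and 7 with Hnf3a replicate 1 alone. Of the other pathway lists together, with 11 genes lower and 2 higher, 7 were lower and 0 higher in each limma fit and with Hnf3a replicate 1 alone. The number higher was 1 with the filter of at least 1 FPKM, and 1 to 2 without 1 library. No neighbouring gene was called in any of the fits. The cause of these changes was not tested, except that fewer genes or libraries enter some fits.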

Other observations

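Of the markers of other cells that are known to make these proteins, 11 neutrophil genes were compared. Of the 5 that were tested, 1 was called, Ltf (lactoferrin), which epithelia also express, with 1770, 1927 and 1903 counts in the Hnf3a libraries against 2863, 2946 and 3489 in the pcDNA libraries (log2 fold change -0.81, edgeR adjusted p 5.07e-06). The other 4 tested were not called. Ly6g had 927 to 1130 counts in all 6 libraries (log2 fold change -0.03, edgeR adjusted p 0.944), and S100a8, S100a9 and Ngp had at most 54, 51 and 28 counts (log2 fold changes -0.45, 1.09 and 1.43, edgeR adjusted p 0.752, 0.863 and 0.689). The 6 genes that were not tested, among them Mpo, Elane, Csf3r and Cxcr2, had no more than 16 counts. The summed level of the neutrophil list was 42.2 to 47.4 CPM in the Hnf3a libraries and 61.4 to 69.3 CPM in the pcDNA libraries, and Ltf was the gene of the list with the most counts in every library. None of the 6 adipocyte genes was tested, and none had over 14 counts. Of the 6 macrophage and 7 fibroblast genes tested, none was called by edgeR, while 2 and 5 were higher at an unadjusted p under 0.05, and DESeq2 called 0 and 3. Limma on log2(FPKM + 0.1) called 0 of both. Of 12 kidney tubule genes tested, 1 was called, Krt18, which was higher (log2 fold change 0.20, edgeR adjusted p 0.00148). For each of these marker lists, the share to compare is the 3.17% called by edgeR over all genes tested. The part of these genes in the results for serum amyloid A and haptoglobin was not tested.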
